A study of Arabidopsis thaliana with 4 samples.

Results

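The 39 genes described here make and polymerise the building blocks of lignin in Arabidopsis thaliana. They were chosen by gene name and locus, with no threshold on measured values but with earlier results of these data known. All 39 were found among the 33316 named loci of the deposited tables. The list holds 16 genes of monolignol synthesis, the 17 laccase genes LAC1 to LAC17, and 6 class III peroxidase genes. Transcripts were measured by RNA sequencing in the lowest 1 cm of the inflorescence stem, cut just above the rosette of plants 15 to 20 cm tall. Wild-type plants of accession Col-0 (WT) were compared with mol1-1, a mutant of the receptor-like kinase gene MOL1 in the same accession, and each genotype has 2 libraries. All plants grew for 3 weeks in days with 8 h of light and then in days with 16 h of light, and the labels give no other treatment and no plant age.

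Lignin stiffens the walls of xylem vessels and of the fibres between the vascular bundles, which makes the base of the stem one of the most lignified parts of the plant. Its monomers, the monolignols, are made from phenylalanine in the cytosol, and a hydroxylase, F5H, together with the methyltransferase COMT1 directs intermediates from guaiacyl to syringyl units. The monolignols move to the wall, where laccases use oxygen and peroxidases use hydrogen peroxide to turn them into radicals that couple into the polymer.

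The libraries held 28017346 to 37059413 exon reads in named loci. MOL1 (AT5G51350), the mutated gene, had 938 and 825 reads in the WT libraries and 342 and 264 in the mol1-1 libraries, and it fell in mol1-1, the log2 fold change being -1.66 (SE 0.12; edgeR's quasi-likelihood test, adjusted p 0.0217), which goes with the labels. Marker genes of lignifying tissue were abundant. The secondary wall cellulose synthase gene CESA4 had 826, 1106, 1125 and 628 RPKM in WT replicates 1 and 2 and then in those of mol1-1, the order used throughout. RPKM, the unit of the deposited levels, scales reads by exon length and by the gene reads of the library, so it can be compared between genes. The listed floral organ genes had at most 0.70 RPKM. By CPM, the count scaled by library size and a TMM factor, mol1-1 replicate 2 held the lowest level of 34.2% of the 19024 tested genes, the largest share of the 4 libraries. By RPKM it held the lowest level of 6158 of them and mol1-1 replicate 1 that of 6199, so the order of these libraries depends on the scaling. The p-values measure the spread between libraries, since the labels do not say how the plants were shared out among replicates, and in stem pieces fewer lignifying cells and less RNA per cell cannot be told apart.

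No gene of the list passed an adjusted p of 0.05 between the genotypes. In data simulated for this design, edgeR recovered 51% of 2-fold and 94% of 4-fold changes, in genes drawn from all tested genes. Recovery was not simulated for the list itself, whose replicates differed more. The median absolute log2 difference between the mol1-1 replicates was 0.60 over the 30 tested genes of the list and 0.22 over all tested genes. The absence of calls therefore does not show that levels were equal. Of the 39 genes, 30 had enough reads to be tested and 0 passed in edgeR, DESeq2 or limma. In edgeR 0.2% of all tested genes passed, 0.189% higher and 0.0105% lower. DESeq2 called 280 of these 19024 genes and limma 43. Unadjusted p was under 0.05 for 1 of the 30, LAC10, while 5.94% of all tested genes reached that. Differences between replicates were set beside those between genotypes. This measure favours the replicate side, since it takes the larger of 2 differences between single libraries and compares it with a difference between means. For 27 of the 30 genes the larger of the 2 replicate differences exceeded the difference between genotype means, against 78.6% of all tested genes. The median log2 fold change, mol1-1 over WT, was -0.02 over the 30 genes and -0.01 over all tested genes.

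**Figure D1:**
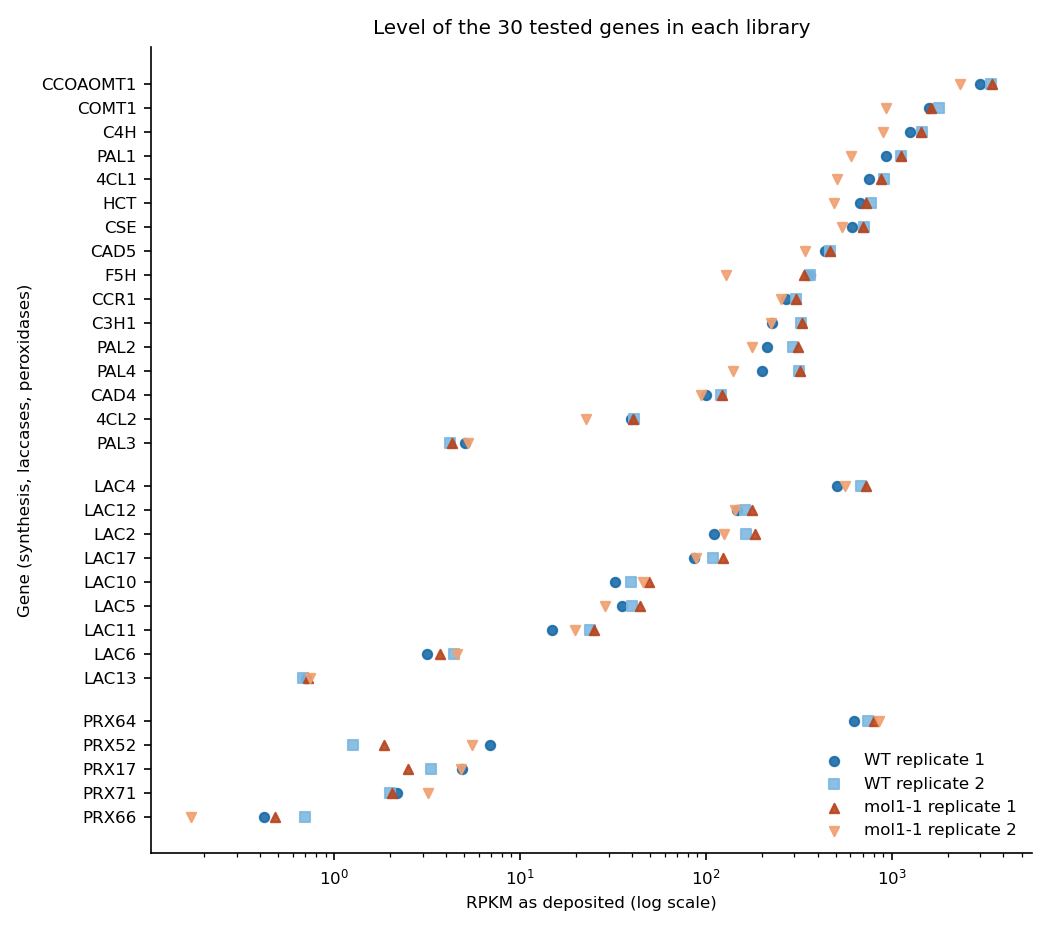
Level of each of the 30 tested genes in RPKM on a log axis, with 1 symbol per library and genes ordered by mean level within synthesis, laccases and peroxidases. The synthesis genes span from 4.72 (PAL3) to 3052 (CCOAOMT1) in mean RPKM, and the symbol of mol1-1 replicate 2 lies at the left for most of them.

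The synthesis genes were among the most abundant transcripts of the stem base. CCOAOMT1 (AT4G34050), which methylates caffeoyl-CoA on the way to guaiacyl units, ranked 9 among the 33316 loci by mean RPKM. COMT1 (AT5G54160), a methyltransferase of the syringyl branch, ranked 29, and C4H (AT2G30490), the hydroxylase that makes p-coumarate, ranked 36. PAL1 (AT2G37040), which takes the amino group from phenylalanine, ranked 52. At the other end, PAL3 (AT5G04230) ranked 13762 and 4CL2 (AT3G21240), a CoA ligase, ranked 3661.

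PAL1, C4H and the CoA ligases of the entry to the pathway were lowest in mol1-1 replicate 2. PAL1 had 929.7 and 1117 RPKM in WT and 1117 and 604 in mol1-1. The level in mol1-1 replicate 1 was close to that of WT replicate 2, so the genotypes overlapped. The fitted log2 fold change was -0.21 (SE 0.35; edgeR, adjusted p 0.997). C4H had 1255 and 1450 RPKM in WT against 1444 and 896 in mol1-1, and 4CL1 (AT1G51680), the main CoA ligase of the pathway, had 751 and 905 against 879 and 509. In both genes, 1 mol1-1 library lay within the WT values and the other below them. Their log2 fold changes were -0.17 (SE 0.31) and -0.22 (SE 0.33). 4CL2 had 39.8 and 41.4 RPKM in WT and 40.7 and 22.8 in mol1-1. Its log2 fold change was -0.31 (SE 0.29).

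PAL1 supplied most of the PAL transcripts in every library. Its share of the summed RPKM of the 4 PAL genes was 68.9% and 64.4% in WT and 63.5% and 65.1% in mol1-1. PAL2 (AT3G53260) held 15.9% to 19.2% and PAL4 (AT3G10340) 14.9% to 18.4%, while PAL3 held at most 0.57%. PAL3 was the 1 synthesis gene whose level in mol1-1 replicate 2 was the highest of the 4 libraries, at 5.25 RPKM against 5.09, 4.21 and 4.32 in the others.

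Among the genes of the shikimate ester steps and of the guaiacyl branch, HCT (AT5G48930), the transferase that joins p-coumarate to shikimate, had 676 and 779.5 RPKM in WT and 726 and 487 in mol1-1 (log2 fold change -0.23, SE 0.27). CSE (AT1G52760), an esterase that releases caffeate from its shikimate ester, had 609 and 715 RPKM against 705 and 541 (-0.05, SE 0.23). Between them acts C3H1 (AT2G40890), the hydroxylase of the ester, for which the log2 fold change was 0.03 (SE 0.29). CCOAOMT1 had 2988 and 3433 RPKM in WT and 3468 and 2320.3 in mol1-1, and its log2 fold change was -0.11 (SE 0.29). In each of these genes the mol1-1 libraries lay on either side of at least 1 WT library, so the genotypes overlapped.

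CCR1 (AT1G15950), the reductase that makes the aldehydes, had 270.4 and 306 RPKM in WT and 306 and 254 in mol1-1, giving a log2 fold change of -0.01 (SE 0.19). Unique reads were 67.7% of its exon reads. The reference annotation places AT1G15960 and the long non-coding RNA AT1G05213 on its opposite strand, and strand use in counting is not given in the sources used here, so its level is uncertain. CAD5 (AT4G34230), a dehydrogenase of the last step to the alcohols, had 441 and 463 RPKM against 467 and 344 (-0.12, SE 0.22). Its partner CAD4 (AT3G19450) had a log2 fold change of 0.00 (SE 0.21), and neither gene separated the genotypes.

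Of the 16 synthesis genes, F5H (AT4G36220), the hydroxylase that opens the syringyl branch, had the widest gap between the mol1-1 libraries. It had 364 and 366 RPKM in the WT libraries and 336 and 129 in mol1-1 replicates 1 and 2. Both mol1-1 libraries lay below both WT libraries, but replicate 1 was 2.61 times as high as replicate 2. Its log2 fold change was -0.61 (SE 0.44; edgeR, adjusted p 0.997). F5H was the only synthesis gene without overlap between the genotypes. COMT1, the methyltransferase of the same branch, had 1582 and 1795 RPKM in WT and 1623 and 929 in mol1-1, giving a log2 fold change of -0.37 (SE 0.33). The ratio of F5H to C4H in RPKM was 0.290 and 0.252 in WT and 0.233 and 0.144 in mol1-1. That of COMT1 to CCOAOMT1 was 0.530 and 0.523 against 0.468 and 0.400. In both ratios the mol1-1 libraries lay below the WT libraries, a split that 16.8% of all tested genes showed in their own CPM. The first ratio rests on the same F5H values, and with 2 libraries a side these ratios were not tested.

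**Figure D2:**
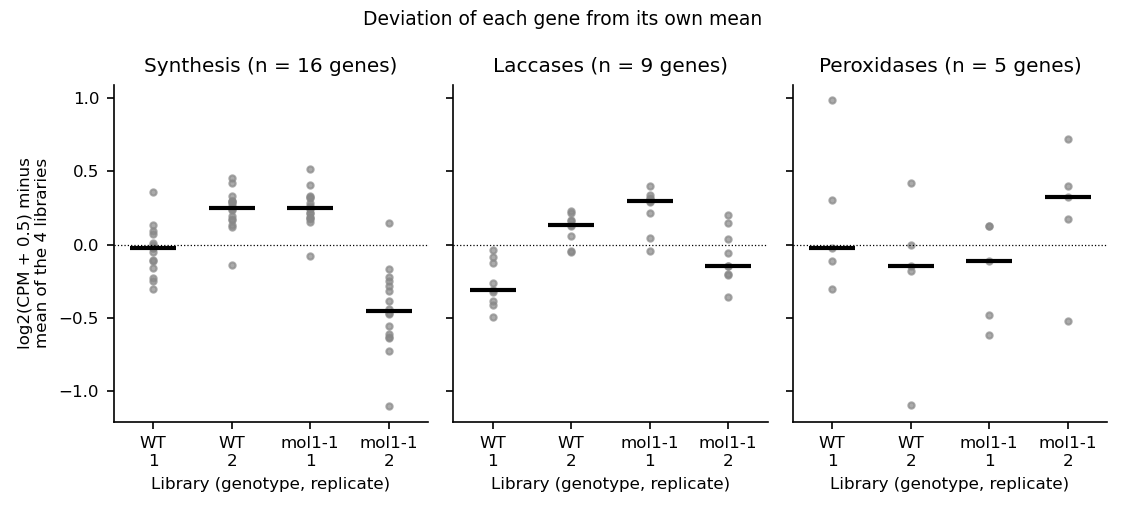
Deviation of each tested gene from its own mean over the 4 libraries, in log2(CPM + 0.5), by library. Grey points are genes and black bars are medians. The median of the 16 synthesis genes is -0.45 in mol1-1 replicate 2 and that of the 9 laccases is -0.31 in WT replicate 1.

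The synthesis genes were low together in 1 library. By CPM, 14 of the 16 had their lowest value in mol1-1 replicate 2, against 34.2% of all tested genes. By RPKM it was 15 of 16, against 6158 of the 19024. Their median deviation from the mean of the 4 libraries was -0.02 and 0.25 in WT and 0.25 and -0.45 in mol1-1, where the median over all tested genes was between -0.002 and 0.009 in every library. From mol1-1 replicate 1 to replicate 2 the level was lower in 15 of the 16 genes, against 49.3% of all tested genes. The fall in those 15 ran from 0.32 (CCR1) to 1.43 (F5H) on the log2 scale. All 16 had a replicate difference larger than their genotype difference, as 78.6% of all tested genes did by this measure. The 2 WT libraries also differed in 1 direction, with 15 of 16 genes higher in replicate 2, against 49.1% of all tested genes. None of those 15 rose by more than 0.70 (PAL4) on the log2 scale.

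Leaving out a mutant library moved the synthesis genes to either side of WT. Without mol1-1 replicate 2, their median log2 fold change was 0.14 and 0 of the 16 passed, where 1.09% of all tested genes did, 0.0721% as lower. Without mol1-1 replicate 1, the median was -0.56, and F5H and 4CL2 passed as lower, with log2 fold changes of -1.51 (SE 0.21, adjusted p 0.0167) and -0.84 (SE 0.15, adjusted p 0.0355) in edgeR. In that fit 2.1% of all tested genes passed, 0.638% as lower, and mol1-1 stood on replicate 2 alone, whose spread is assumed to be that of WT. Without replicate 2, F5H had -0.06 (SE 0.21) and 4CL2 0.06 (SE 0.14). No gene of the list passed without WT replicate 1 or 2, where 0.192% and 0.456% of all tested genes passed, 0.0155% and 0.154% as lower.

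Other markers moved with this library as well, in which 6333 of the 19024 tested genes had their highest CPM and 34.2% their lowest. All 5 green tissue genes of the marker list, which encode light-harvesting, photosystem and carbon fixation proteins, were highest in mol1-1 replicate 2. Their summed RPKM was 8260 and 8037 in WT and 7690 and 11789 in mol1-1, and none was at 0. All 4 tested epidermis genes were lowest there, with a summed RPKM of 367 and 386 in WT and 322 and 239 in mol1-1, and PDF1, the untested member, had 2.47, 0.17, 0.15 and 0.17 RPKM in the same order of libraries. The secondary wall and xylem genes had 5 of 9 lowest there by CPM and 6 of 9 by RPKM. Their summed RPKM was 3057 and 4061 in WT and 4006 and 2692 in mol1-1. All 9 were lower in mol1-1 replicate 2 than in replicate 1, against 49.3% of all tested genes. Of the 5 phloem genes, 2 were lowest in mol1-1 replicate 2 and 4 were lower there than in replicate 1. The summed RPKM of the synthesis genes was 10652.5 and 12436 in WT and 12202 and 7678 in mol1-1. The part of these markers in the low synthesis levels was not tested.

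**Figure D3:**
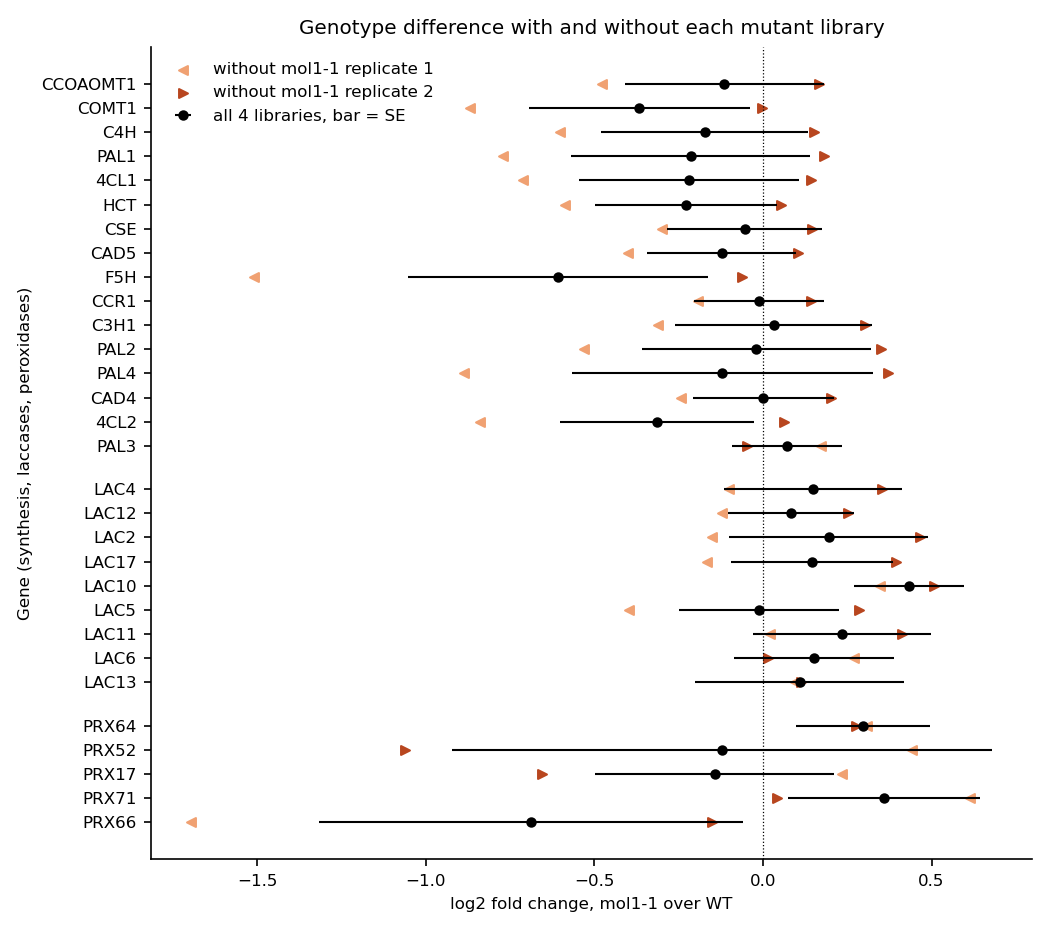
Log2 fold change of mol1-1 over WT for each of the 30 tested genes with its SE (black, all 4 libraries) and without mol1-1 replicate 1 or 2 (orange). For F5H the value is -0.61 with all libraries, -1.51 without replicate 1 and -0.06 without replicate 2.

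Of the 17 laccases, 9 were tested, and 6 of these had their lowest CPM in WT replicate 1, against 21.3% of all tested genes, and 2 in mol1-1 replicate 2. As for the synthesis genes, most were lower in mol1-1 replicate 2 than in replicate 1 (8 of 9, against 49.3% of all tested genes). Most were also higher in WT replicate 2 than in replicate 1 (8 of 9, against 49.1%). The median deviation of the 9 was -0.31 and 0.13 in WT and 0.30 and -0.15 in mol1-1. Their median log2 fold change was 0.15, with 8 above and 1 below 0, and 0 passed. It was 0.42 without WT replicate 2 and -0.10 without mol1-1 replicate 1. No test compared the laccases with the synthesis genes.

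LAC4 (AT2G38080), a laccase of xylem and fibres required for normal stem lignin, was the most abundant laccase by RPKM. It had 510.4 and 681 RPKM in WT and 732 and 559 in mol1-1, with overlap between the genotypes and a log2 fold change of 0.15 (SE 0.26; edgeR, adjusted p 0.997). It held 54.2% and 55.5% of the summed laccase RPKM in WT and 54.6% and 55.0% in mol1-1. The share was nearly the same in all 4 libraries while the level varied between 510.4 and 732 RPKM. The ratio of LAC4 to C4H in RPKM was 0.407 and 0.470 in WT and 0.507 and 0.624 in mol1-1. Both mol1-1 ratios lay above both WT ratios, a split that 16.9% of all tested genes showed in their own CPM. The highest ratio rests on the low C4H level in mol1-1 replicate 2, and this ratio was not tested.

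LAC17 (AT5G60020), which acts with LAC4 in stem lignification, had 87.0 and 109.9 RPKM in WT and 124 and 88.3 in mol1-1 (log2 fold change 0.15, SE 0.24). Only 21.0% of its exon reads were unique, and the long non-coding RNA AT5G60022 is annotated over 2266 bases of its opposite strand. LAC6 (AT2G46570) is overlapped in the same way by AT2G46572, and 11.6% of its exon reads were unique. Their levels are therefore uncertain. With unique reads alone the log2 fold change was 0.16 for LAC17 and -0.22 for LAC6, against 0.15 for LAC6 with all reads.

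LAC12 (AT5G05390) had 148 and 162 RPKM in WT and 177 and 143 in mol1-1, and LAC2 (AT2G29130) had 110.4 and 165 against 184 and 125. For both genes the WT and mol1-1 ranges overlapped, with log2 fold changes of 0.08 (SE 0.19) and 0.20 (SE 0.30). LAC5 (AT2G40370) had 35.5 and 39.9 RPKM against 44.2 and 28.8, the mol1-1 libraries lying on both sides of WT. LAC11 (AT5G03260), which acts with LAC4 and LAC17 in lignin formation, had 15.0 and 23.9 RPKM in WT and 24.9 and 19.9 in mol1-1 (log2 fold change 0.23, SE 0.26). WT replicate 1 was the lowest library for LAC2 and LAC11.

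LAC10 (AT5G01190) had the smallest p of the list. It had 32.4 and 39.6 RPKM in the WT libraries and 49.2 and 46.1 in the mol1-1 libraries, so both mol1-1 libraries were above both WT libraries. The log2 fold change was 0.43 (SE 0.16), with an unadjusted p of 0.0385 and an adjusted p of 0.769 in edgeR, and DESeq2 gave 0.883. The value ran from 0.27 without WT replicate 1 to 0.63 without WT replicate 2. It does not pass the correction over all genes.

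The remaining laccases were rare or without reads. LAC13 (AT5G07130) had 35 to 49 reads per library and LAC1 (AT1G18140) 1 to 8. LAC8 (AT5G01040) and LAC15 (AT5G48100), the latter known from the seed coat, each had 1 read in all 4 libraries together. LAC3, LAC7, LAC9, LAC14 and LAC16 had 0 reads in every library. At a limit of 3 reads, counting error only, this allows up to 0.081 to 0.107 CPM per library, here without the TMM factor. LAC13 was tested and had a log2 fold change of 0.11 (SE 0.31), and the other 8 genes of this group were not tested.

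Among the peroxidases, PRX64 (AT5G42180) stood far above the rest. PRX64 is known from lignin deposition at Casparian strips and in fibres. It had 630.5 and 748 RPKM in WT and 802 and 859 in mol1-1, with both mol1-1 libraries above both WT libraries. Its log2 fold change was 0.30 (SE 0.20; edgeR, adjusted p 0.997), and it was 0.31 without mol1-1 replicate 1 and 0.27 without mol1-1 replicate 2. PRX64 was thus not low in the library in which most synthesis genes were lowest. It held 97.8% to 99.1% of the summed RPKM of the 6 peroxidases.

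PRX52 (AT5G05340), known from lignin of the fibres between bundles, had 6.90 and 1.26 RPKM in WT and 1.87 and 5.55 in mol1-1. The WT libraries differed more than the genotypes, and the log2 fold change of -0.12 had an SE of 0.80. PRX17 (AT2G22420) had 4.86 and 3.32 RPKM in WT and 2.49 and 4.83 in mol1-1 (-0.14, SE 0.35), and PRX71 (AT5G64120) had 2.18 and 1.99 against 2.06 and 3.21 (0.36, SE 0.28). Both genes were higher in mol1-1 replicate 2 than in replicate 1. PRX66 (AT5G51890), known from vessel lignin, had 16 and 24 reads in WT and 22 and 6 in mol1-1, giving a log2 fold change of -0.69 (SE 0.63). PRX72 (AT5G66390), known from stem lignin, had 1 and 0 reads in WT and 0 and 4 in mol1-1, too few for a test.

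Over the whole list, 5 of the 30 tested genes showed no overlap between the genotypes in CPM, against 33.7% of all tested genes. LAC10, LAC13, PRX64 and PRX71 were the 4 higher ones, against 16.9% of all tested genes, and F5H the 1 lower one, against 16.8%. By RPKM as deposited PRX71 overlapped, which leaves 4.

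AC elements are short promoter sequences through which MYB factors act on phenylpropanoid genes. They were searched in the 250 bases upstream of each annotated gene start, since many of the synthesis genes were low in the same library. The motifs ACCTACC (AC-I), ACCAACC (AC-II) and ACCTAAC (AC-III) were matched on both strands. At least 1 was found for 13 of the 39 genes, or 33.3%, while 6.12% of the windows of all 27443 protein-coding nuclear genes held one. By class the count was 6 of 16 synthesis genes, 6 of 17 laccases and 1 of 6 peroxidases. AC-II made up most matches, with 9 of the 39 genes against 2.69% of all windows.

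The windows of 6 genes are shown, from the RefSeq sequence of assembly TAIR10.1 and 5′ to 3′ in the direction of the gene, with AC elements in capitals. 4CL2 (chr3:7457405-7457654, minus strand) has 2 AC-II matches, the most of any gene of the list, and HCT (chr5:19838236-19838485, minus strand) has 1. CCOAOMT1 (chr4:16310159-16310408, plus strand), the most abundant gene of the list, has the AC-I match of the synthesis class. LAC10 (chr5:72042-72291, plus strand) and LAC11 (chr5:779425-779674, minus strand) have AC-II, and F5H (chr4:17139778-17140027, minus strand), with the widest gap between mol1-1 libraries among the synthesis genes, has no match.
4CL2: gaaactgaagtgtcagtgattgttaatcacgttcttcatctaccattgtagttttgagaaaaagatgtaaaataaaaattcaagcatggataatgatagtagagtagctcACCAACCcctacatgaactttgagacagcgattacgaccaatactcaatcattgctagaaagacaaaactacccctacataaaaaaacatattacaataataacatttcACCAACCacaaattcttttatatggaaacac
HCT: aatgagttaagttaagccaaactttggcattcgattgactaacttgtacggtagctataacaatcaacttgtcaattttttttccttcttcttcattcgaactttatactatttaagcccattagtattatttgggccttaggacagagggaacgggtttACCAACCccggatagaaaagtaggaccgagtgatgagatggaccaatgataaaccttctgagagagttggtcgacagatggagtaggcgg
CCOAOMT1: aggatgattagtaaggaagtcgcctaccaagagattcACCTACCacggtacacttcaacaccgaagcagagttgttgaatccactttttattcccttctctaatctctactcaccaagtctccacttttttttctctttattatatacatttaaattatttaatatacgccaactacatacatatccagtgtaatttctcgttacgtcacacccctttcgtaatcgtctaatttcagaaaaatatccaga
F5H: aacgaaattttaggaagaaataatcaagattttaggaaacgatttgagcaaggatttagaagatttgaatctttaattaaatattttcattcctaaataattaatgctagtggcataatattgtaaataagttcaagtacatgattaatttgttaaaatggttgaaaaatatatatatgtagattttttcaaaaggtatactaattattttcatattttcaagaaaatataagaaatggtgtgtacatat
LAC10: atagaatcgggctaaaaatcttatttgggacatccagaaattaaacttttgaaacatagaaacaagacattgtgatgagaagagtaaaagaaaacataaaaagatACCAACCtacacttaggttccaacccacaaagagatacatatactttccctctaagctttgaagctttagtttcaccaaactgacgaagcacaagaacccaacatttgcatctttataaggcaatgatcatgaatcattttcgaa
LAC11: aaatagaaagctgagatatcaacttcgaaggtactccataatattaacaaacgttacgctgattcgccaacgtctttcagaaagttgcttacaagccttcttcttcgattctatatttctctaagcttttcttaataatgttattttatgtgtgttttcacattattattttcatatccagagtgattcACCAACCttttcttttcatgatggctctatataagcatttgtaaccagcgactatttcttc
Relative to the annotated gene start, the AC-II matches begin at -140 and -31 for 4CL2, -90 for HCT, -145 for LAC10 and -61 for LAC11, and the AC-I match at -213 for CCOAOMT1. HCT, 4CL2 and CCOAOMT1, with a match, and F5H, without one, were lowest in mol1-1 replicate 2. LAC10 and LAC11, with a match, were lowest in WT replicate 1. The genes shown were picked, and a link between matches and the order of libraries over the list was not tested. A match is a description of the letters and shows no binding, and no match says only that these letters are not in the window.

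Genes next to the pathway gave 1 call in edgeR, among its regulators. The neighbouring lists were chosen with earlier results of these data known, so how often such lists hold a call cannot be read from it. The 17 listed regulators are MYB factors, Mediator subunits and Kelch-repeat F-box (KFB) genes, and 16 were tested. KFB20 (AT1G80440), whose protein marks PAL for degradation, rose in mol1-1. It had 20.5 and 24.5 RPKM in WT and 79.9 and 77.8 in mol1-1, so the genotypes did not overlap. The log2 fold change was 1.84 (SE 0.16; edgeR, adjusted p 0.0341). Without WT replicate 1 the adjusted p was 0.0565, and over the alternatives it ran from 1.43e-17 (DESeq2) to that value. Of all tested genes, 0.189% passed as higher.

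KFB01 (AT1G15670) and KFB50 (AT3G59940), of the same group, are given as values chosen after they were seen. KFB01 had 15.4 and 21.1 RPKM in WT and 29.0 and 37.7 in mol1-1 (log2 fold change 0.89, SE 0.21, adjusted p 0.356, edgeR), and KFB50 had 44.9 and 60.0 against 103 and 97.8 (0.97, SE 0.19, adjusted p 0.242, edgeR). Both mol1-1 libraries were above both WT libraries for each. With DESeq2, which called 280 of the 19024 tested genes against 38 in edgeR, the adjusted p was 0.0241 and 0.0011. The 4th gene, KFB39, had at most 0.10 RPKM. PAL2 had 214 and 296 RPKM in WT and 314 and 178 in mol1-1, and PAL4 had 201 and 316 against 323 and 141. The 4 PAL genes overlapped between genotypes, and protein was not measured.

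**Figure D4:**
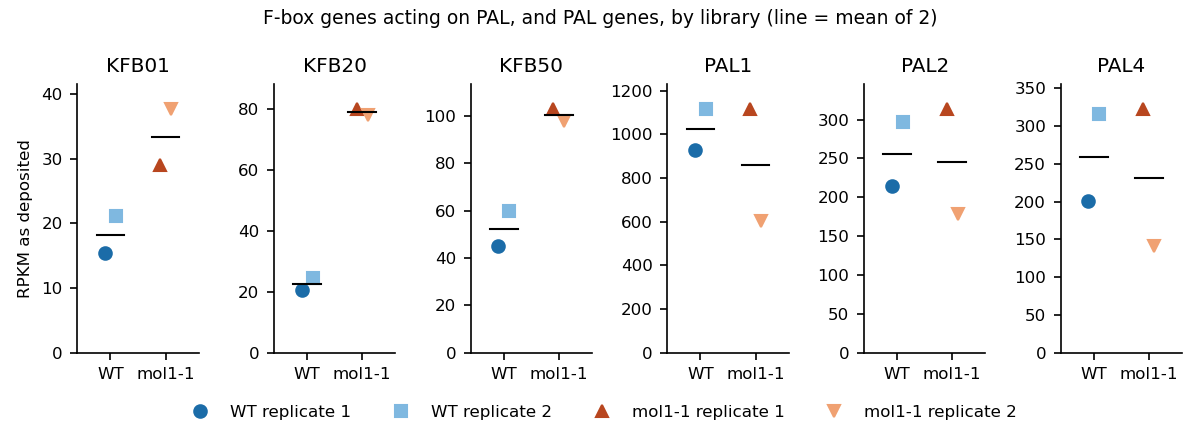
RPKM of 3 F-box genes that act on PAL and of 3 PAL genes in each library, with black lines for the genotype means and separate axes from 0. KFB20 has 20.5 and 24.5 RPKM in WT against 79.9 and 77.8 in mol1-1, while PAL1 has 929.7 and 1117 against 1117 and 604.

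Many regulators and genes for the supply of phenylalanine were also lowest in mol1-1 replicate 2. Among the 16 tested regulators 10 had their lowest CPM in mol1-1 replicate 2, against 34.2% of all tested genes. Their median log2 fold change was 0.04. Of the 18 genes that make phenylalanine from sugar phosphates, all were tested and 0 passed in edgeR or DESeq2. Of these, 13 were below 0, against 9931 of the 19024 tested genes, and 13 were lowest in mol1-1 replicate 2. The median was -0.07. ADT6 (AT1G08250), an arogenate dehydratase gene of the last step, had the smallest p of these (log2 fold change -0.48, SE 0.25, adjusted p 0.941, edgeR). It had 21.8 and 24.5 RPKM in WT and 19.9 and 12.5 in mol1-1, without overlap.

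Further enzymes and peroxidases of the phenylpropanoid network also gave no call in edgeR, and CAD9 was the 1 call with DESeq2. Of the 19024 tested genes, DESeq2 called 280 and edgeR 38. Among 14 tested enzymes outside the list above, 9 were below 0, against 9931 of the 19024 tested genes, and the median was -0.19. CAD9 (AT4G39330), a homologue of CAD4 and CAD5, had 33.8 and 26.9 RPKM in WT and 17.0 and 19.0 in mol1-1, with both mol1-1 libraries below both WT libraries. Its log2 fold change was -0.72 (SE 0.14; edgeR, adjusted p 0.242); DESeq2 gave an adjusted p of 0.0277. Of 8 further peroxidase genes 5 were tested, with a median of 0.09, and PRX47 (AT4G33420) had the smallest p (0.87, SE 0.36, adjusted p 0.85, edgeR).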

How the data were processed

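The authors deposited 1 table per library with read counts per locus (total and unique exon reads, total gene reads) and RPKM. Per the submitters' processing notes the build is TAIR10; aligner, counting program and strand use: not given in the sources used here. Per the labels, polyadenylated RNA was selected. The deposited RPKM equals total exon reads divided by exon length and by the library's total gene reads, to a relative difference of at most 2.16e-14. The 5 rows without a locus (0.0586% to 0.0864% of exon reads) were left out, and 2 loci listed more than once were summed.

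Total exon reads (28017346 to 37059413 per library) were tested with edgeR 4.0.16 (R 4.3.3) over all 19024 genes kept by filterByExpr, with TMM scaling, glmQLFit and glmQLFTest and no covariate. Adjusted p is Benjamini-Hochberg over all of them, at a threshold of 0.05. CPM uses TMM-scaled library sizes. The SE is the log2 fold change over the square root of F. Alternatives used DESeq2 1.42.0, limma 3.58.1 on log2(RPKM + 1), other scaling, filters and read columns, a replicate block and each library left out. Scripts were tested on simulated data. The deviations of libraries with the same number had a correlation of -0.278 over the tested genes, so the numbers were not taken as pairs.

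Values in every library are given for MOL1, any gene of the list that passes, the 10 synthesis genes, 6 laccases and 5 peroxidases with the highest mean RPKM, and the 3 per class with the smallest p. Of each neighbouring list, passing genes or the 1 with the smallest p are named. Members and lists were chosen with earlier results of these data known. Gene positions, overlaps and upstream sequence come from RefSeq TAIR10.1 by locus name, and no coordinate was taken from the deposited tables.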

Additional observations from a re-analysis of the deposited data

How the results depend on the processing

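No gene of the list was called under 10 other settings, and 0 to 2 were called with 1 library left out, the 2 being F5H and 4CL2 without mol1-1 replicate 1. Over all genes 38 passed, with 141 without a filter, 281 with DESeq2, 136 with a replicate block and 248 with a crossed replicate block, chosen after seeing the data since the same-numbered libraries deviated in opposite directions, and 37 to 409 with 1 library left out. The block gave no call in the list. The labels do not say that replicate numbers pair the libraries. MOL1 was called in each fit that recomputed it, and KFB20 in each but that without WT replicate 1.

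With 1 library left out, 23 of the 30 genes changed direction in at least 1 fit. In synthesis genes the log2 fold change ran from -0.77 to 0.18 for PAL1, -0.53 to 0.35 for PAL2, -0.048 to 0.18 for PAL3, -0.89 to 0.37 for PAL4, -0.60 to 0.15 for C4H, -0.71 to 0.14 for 4CL1, -0.84 to 0.063 for 4CL2, -0.31 to 0.37 for C3H1, -0.59 to 0.053 for HCT, -0.30 to 0.15 for CSE, -0.48 to 0.17 for CCOAOMT1, -0.19 to 0.14 for CCR1, -0.24 to 0.20 for CAD4 and -0.40 to 0.10 for CAD5. In laccases it ran from -0.15 to 0.57 for LAC2, -0.10 to 0.42 for LAC4, -0.40 to 0.28 for LAC5, -0.10 to 0.46 for LAC6, -0.091 to 0.66 for LAC11, -0.12 to 0.25 for LAC12 and -0.17 to 0.39 for LAC17. In peroxidases it ran from -0.66 to 0.23 for PRX17 and -1.06 to 1.53 for PRX52. F5H, COMT1, LAC10, LAC13, PRX64, PRX66 and PRX71 kept their direction.

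C3H1 was at -0.0014 without scaling and -0.0019 with limma. CAD4 was at -0.032 without scaling, -0.0053 without a filter, -0.0029 with a filter at 1 CPM, -0.0026 with unique reads, -0.037 with limma and -0.0056 with the replicate block. LAC6 was at -0.22 with unique reads, and PRX52 at 0.036 with limma and 0.078 with the block. The class medians with a library left out and the order of libraries on other scales were chosen after seeing the data. The median of the peroxidases ran from -0.25 to 0.31. The cause was not tested. The 9 of the 39 genes with too few reads have no test, and whether depth or a lack of transcript set this was not tested.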

Other observations

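The flavonoid branch, which leaves the lignin pathway after the CoA ligases, had another order of libraries than the synthesis genes. All 7 listed genes were tested, and 0 passed in edgeR and 1 with DESeq2, which called 280 of the 19024 tested genes. The highest CPM of 6 was in WT replicate 1, as it was for 4698 of all tested genes. Their summed RPKM was 358 and 119 in WT and 88.8 and 144 in mol1-1, and the median log2 fold change was -0.87. The flavonoid hydroxylase gene AT5G07990 had the smallest p, with 14.2 and 5.09 RPKM in WT and 2.98 and 3.60 in mol1-1 (log2 fold change -1.51, SE 0.45, adjusted p 0.568 with edgeR and 0.0214 with DESeq2). CHS (AT5G13930), the entry enzyme of the branch, had 165 and 60.2 RPKM in WT and 50.2 and 70.1 in mol1-1. WT replicate 1, highest for 6 of these genes, was the lowest library for 6 of the 9 tested laccases.

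Lists for other tissues gave no call in edgeR or DESeq2, which called 38 and 280 of the 19024 tested genes. The 9 secondary wall and xylem genes had a median of -0.01 on the log2 scale, with IRX9 at 0.21 (SE 0.19), and the 5 phloem genes had -0.09, with NEN4 at 0.45 (SE 0.38). The 4 tested epidermis genes had -0.44, with FDH at -0.47 (SE 0.15), and the 5 green tissue genes 0.23, with LHCB2.1 at 0.25 (SE 0.23). Of the 5 floral organ genes 0 were tested. Among 10 genes of the rapid touch and wound response, a group known from earlier results of these data to be higher in mol1-1, 5 passed (TCH4, TCH3, ZAT12, ERF6 and ERF5), against 10 with DESeq2. Their summed RPKM was 80.9 and 83.2 in WT against 333 and 352 in mol1-1. Since the group was known to be higher in mol1-1, this split was fixed in advance and is no yardstick for the synthesis genes.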
